A study of Mus musculus with 12 samples.

Results

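The cells described here were the CD49b- fraction of Dclk1-tdTom+ cells from intestinal longitudinal muscle with its attached myenteric plexus (LMMP), taken from adult mice, compared between mice that were irradiated and mice left in homeostasis. They were chosen by gate and treatment: the 6 CD49b- plates of the 12 plates in the series, 3 from irradiated and 3 from homeostasis mice, and on them every well with at least 1000 UMIs, at least 500 detected genes and less than 20% of UMIs from mitochondrially encoded transcripts. A UMI (unique molecular identifier) stands for 1 captured transcript molecule. This left 528 of 575 CD49b- wells, 266 irradiated and 262 homeostasis, of 964 retained wells in all. The other 436 were CD49b+ wells. Their plate sums entered the whole-plate test with edgeR, through its gene filter, scaling and shared dispersion. They also served to compare the irradiation effect of the gates. UMIs were summed per plate, because a plate and not a well is a replicate.

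All mice were C57BL/6, carried the Dclk1-tdTom label and received 3 mg tamoxifen (Tam) at 8 or 9 weeks of age, so the homeostasis mice had tamoxifen too. Irradiated mice received 10.5 Gy 7 days after tamoxifen and their tissue was taken 3 days after irradiation. Homeostasis tissue was taken 10 days after tamoxifen, which is the same total time. Each plate held 1 sorted cell per well from a pool of 2 mice, and no pool gave cells to both treatments. Each of the 6 pools gave 1 CD49b- and 1 CD49b+ plate. The label marks cells in which Dclk1, a doublecortin-like kinase gene, was active when tamoxifen was given, and the labels call the CD49b- cells neuronal. Homeostasis replicates 1, 2 and 3 received tamoxifen at 8, 9 and 8 weeks, and the irradiated replicates at 8, 9 and 9 weeks. The numbers in the plate descriptions run from 1 to 4 over and over, which splits the plates into 3 label sets, and the labels do not say what a set is. Replicate 1 of both treatments shared one set, homeostasis replicates 2 and 3 another, and irradiated replicates 2 and 3 the remaining one. Only the first set holds both treatments, so beyond replicate 1 set and treatment cannot be told apart.

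The myenteric plexus is the part of the enteric nervous system that drives the movement of the gut wall. Its inhibitory motor neurons make nitric oxide through Nos1 and release peptides such as VIP, its excitatory motor neurons use acetylcholine and tachykinins, and smaller populations act as sensory neurons and interneurons. These neurons do not divide in the adult. Ionising radiation breaks DNA, which in dividing intestinal cells stabilises p53 and leads to arrest or death, while mature neurons as a rule survive such doses.

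The wells carried neuronal transcripts on every plate. Summed over the 12 neuron markers, plates ran from 7805 to 8059 CPM (a gene's UMIs per 1000000 UMIs of the plate) in homeostasis and from 7081 to 8426 CPM after irradiation, and of these markers Uchl1 is listed at 0. Snap25, a protein of synaptic vesicle fusion, was found in 97.8% to 100% of wells of a homeostasis plate and in 98.8% to 100% of an irradiated one. Itga2, which encodes CD49b, had 0 UMIs on all 6 plates. Dclk1 stood at 148 ± 5.87 CPM in homeostasis (SD, n = 3) and 157 ± 19.7 CPM after irradiation, a log2 fold change of 0.08 (SE 0.21, edgeR adjusted p = 1). Retained UMIs per plate ran from 610743 to 746674 in homeostasis and from 541729 to 742100 after irradiation. The plate medians of UMIs per well overlapped (6338 to 8335 against 5904 to 7674; two-sided exact permutation p = 0.5), as did those of genes per well (2972 to 3469 against 2772 to 3388; p = 0.5, same exact test). The median mitochondrial share did not overlap: 1.657% to 1.865% in homeostasis and 1.883% to 1.943% after irradiation (exact permutation p = 0.1, the smallest that 3 plates against 3 allow). With every deposited well it overlapped (1.659% to 1.876% against 1.875% to 1.937%, exact permutation p = 0.2). Of 96 well barcodes 95 occurred on all 12 plates, so a barcode names a well position and not a cell. CPM values of single genes below use library sizes scaled by edgeR's TMM method, while sums over marker lists and values without the highest well use the plain plate totals.

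Of 8555 genes tested with edgeR's quasi-likelihood test, 4 passed an adjusted p of 0.05 (0.0468%), all of them higher after irradiation. None was lower; 182 genes were lower and 172 higher at an unadjusted p under 0.05 (2.13% and 2.01%), and DESeq2 also called 4 higher and 0 lower. The central 90% of log2 fold changes lay between −0.67 and 0.70, with a median of 0.005 and a median SE of 0.35. On simulated counts of this depth the same test recovered 91.5% of genes changed 4-fold and 30% of those changed 2-fold, so most 2-fold changes went uncalled there. Of the genes called, 3 are gene models built from repeated sequence, Gm10800, Gm10801 and Gm21738. The other, A330069E16Rik, is a long intergenic non-coding RNA.

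**Figure D1:**
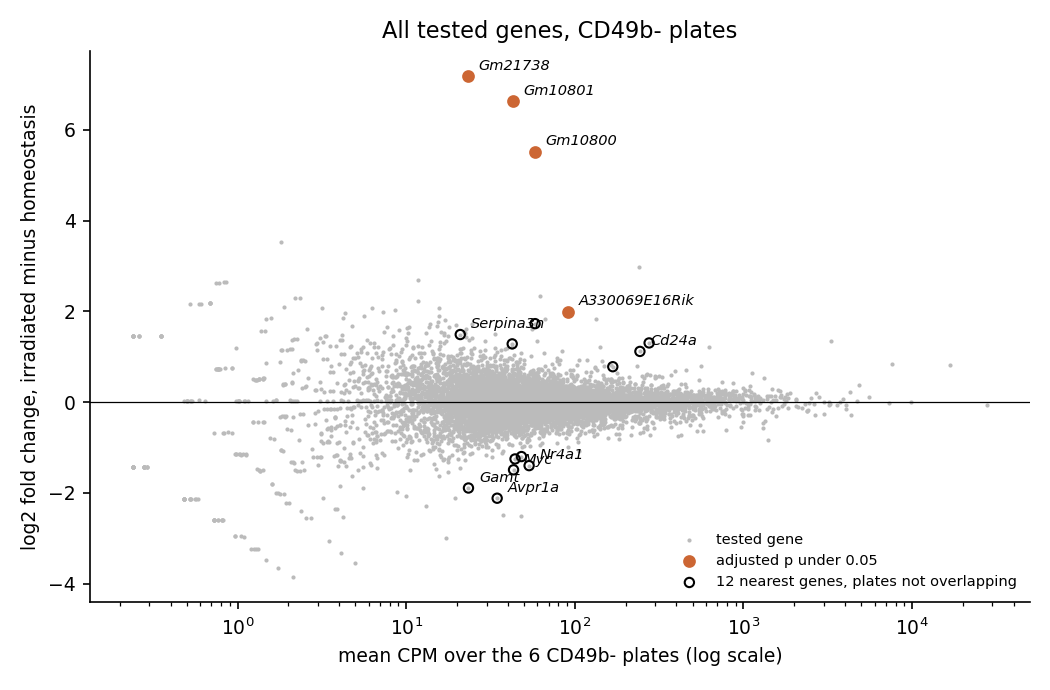
Each grey point is 1 of the 8555 tested genes, with its mean CPM over the 6 CD49b- plates on a log axis and its log2 fold change (irradiated minus homeostasis) on the linear y axis. The 4 filled points are the genes past the threshold, from A330069E16Rik at 1.99 to Gm21738 at 7.19, the last a fitted value that depends on the prior count because all homeostasis plates are at 0, and the open circles are the 12 genes of smallest p below it whose plates did not overlap.

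The repeat-like models are shown first by sequence, since their kinship bears on how their counts are read. In the GENCODE vM21 annotation of GRCm38 all 3 are listed as protein-coding genes. Gm10800 (ENSMUSG00000075014) lies on chromosome 2 from 98666547 to 98667301 on the minus strand and Gm10801 (ENSMUSG00000075015) beside it from 98662237 to 98664083 on the plus strand. Gm21738 (ENSMUSG00000095280) lies on chromosome 14 from 19415857 to 19418930 on the minus strand. The first 240 bases of the single transcript of each follow, 5′ to 3′, with every copy of the 15-base word GATTTTCAGTTTTCT in capitals.
Gm10800: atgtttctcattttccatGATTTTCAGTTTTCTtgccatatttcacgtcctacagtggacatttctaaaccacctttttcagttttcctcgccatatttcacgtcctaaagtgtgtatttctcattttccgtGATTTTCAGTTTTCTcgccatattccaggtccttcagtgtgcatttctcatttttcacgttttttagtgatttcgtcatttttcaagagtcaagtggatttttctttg
Gm10801: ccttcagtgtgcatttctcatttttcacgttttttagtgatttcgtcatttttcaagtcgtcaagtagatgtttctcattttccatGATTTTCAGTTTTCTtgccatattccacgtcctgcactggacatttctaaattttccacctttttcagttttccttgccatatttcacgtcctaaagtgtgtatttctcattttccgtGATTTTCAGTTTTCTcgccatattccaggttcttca
Gm21738: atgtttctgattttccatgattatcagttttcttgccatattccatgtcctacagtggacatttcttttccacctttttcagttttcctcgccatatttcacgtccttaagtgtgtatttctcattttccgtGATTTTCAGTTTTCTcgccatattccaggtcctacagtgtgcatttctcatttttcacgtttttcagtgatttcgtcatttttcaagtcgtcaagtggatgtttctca

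The word was picked as the one with most copies in all 3 transcripts: 5 in Gm10800 (660 bases), 4 in Gm10801 (504 bases) and 5 in Gm21738 (681 bases). On either strand it occurs in 18 of 55341 gene models of the annotation (0.0325%), among them all 13 members of the list of satellite-like models, and not in A330069E16Rik. Each transcript repeats itself: shifted along itself by 225, 231 and 234 bases, Gm10800, Gm10801 and Gm21738 matched at 56.3%, 52.7% and 62.4% of positions. A shift of 58 bases gave 51.2%, 47.3% and 58.6%. Of their 31-base words 42.0%, 36.2% and 43.6% also occur in another gene model. The 3 models share sequence, so how their reads were split among them is uncertain and they are not independent of each other. As background, mouse major satellite is the tandem repeat of the pericentromeric heterochromatin, and transcript models with units of this kind are known in the mouse annotation.

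Gm10800 stood at 1.75, 3.35 and 1.44 CPM on homeostasis replicates 1 to 3 and at 124, 129 and 85.8 CPM on irradiated replicates 1 to 3. The groups did not overlap, and the lowest irradiated plate was far above the highest homeostasis plate. This was 204 UMIs against 4 (ratio 51.7, exact 95% counting interval 19.9 to 192; log2 fold change 5.52, SE 0.49, edgeR adjusted p = 5.60e-07). Gm10801 stood at 0, 1.67 and 0 CPM in homeostasis and at 108, 106 and 42.1 CPM after irradiation, 152 UMIs against 1. The ratio was 154, with a counting interval of 27.2 to 6126 (edgeR adjusted p = 4.70e-06). Gm21738 had no UMI on any homeostasis plate and stood at 62.2, 53.8 and 23.4 CPM after irradiation. It was at least 9.37-fold higher, counted against a floor of 3 UMIs per homeostasis plate (edgeR adjusted p = 0.000421). On all 3 models irradiated replicate 3 had the lowest value of its group. The intervals and floors cover counting error only. The 13 satellite-like models together gave 1.34 to 4.58 CPM on homeostasis plates and 171 to 428 CPM on irradiated plates. Of the 13, 3 passed the filter on low counts and 1, Gm10721, had no UMI. The 3 that passed were Gm10800, Gm10801 and Gm21738. With 4, 1 and 0 UMIs on the homeostasis plates, they passed through irradiated plates, where they were high.

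**Figure D2:**
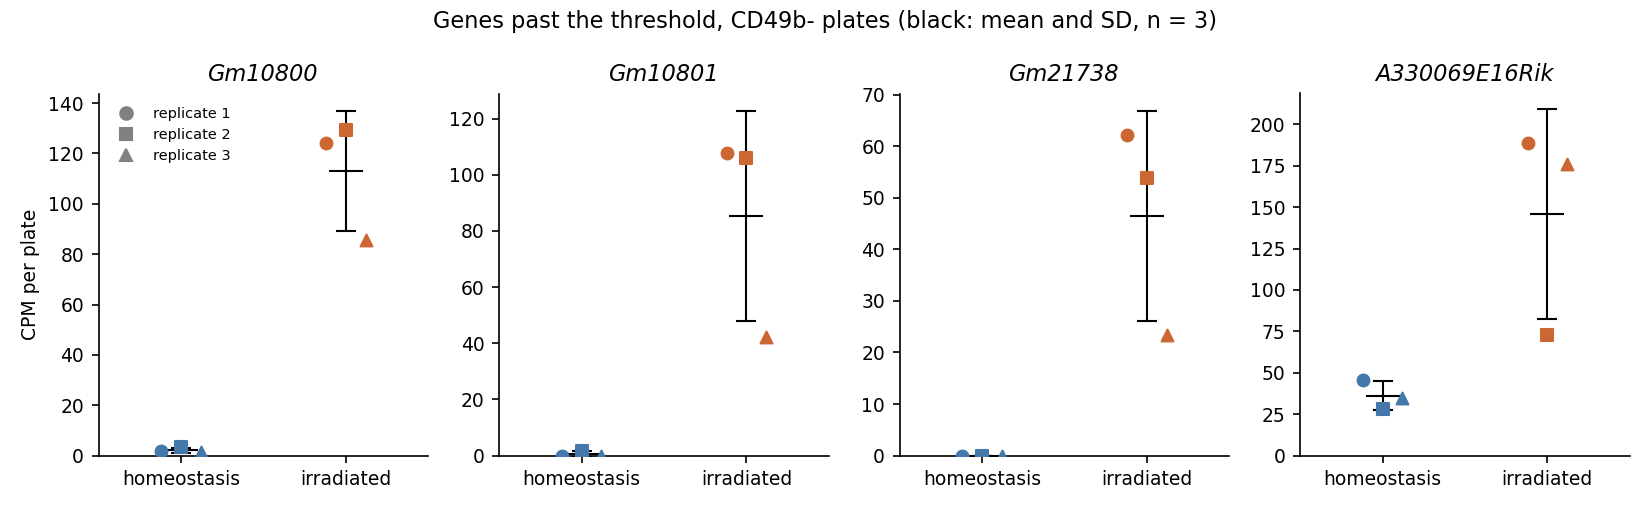
CPM per plate (linear axes from 0) of the 4 genes past the threshold, 3 homeostasis and 3 irradiated CD49b- plates, with mean and SD in black. All irradiated plates lie above all homeostasis plates in each panel; irradiated replicate 2 is the lowest of its group for A330069E16Rik, at 72.7 CPM.

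The UMIs of the repeat-like models lay in a minority of neurons. Gm10800 was found in 12 of 92, 21 of 89 and 16 of 85 wells on the irradiated plates (mean 18.5% ± 5.29, SD) and in 1.08%, 2.56% and 1.10% on the homeostasis plates. With every well thinned to 2000 UMIs the shares were 4.40%, 13.6% and 9.41% against 0%, 1.30% and 0%. Any of the 3 models was found in 52 of 266 irradiated wells (19.55%) and in 4 of 262 homeostasis wells (1.53%). The counts were uneven: 14 irradiated wells, 3, 7 and 4 on replicates 1 to 3, held 10 or more UMIs of the 3 models and together 74.4% of the 438 UMIs. No homeostasis well reached 10. The single highest well gave 34 of the 60 Gm10800 UMIs on irradiated replicate 1. Without the highest well of each plate the level was 63.8 ± 21.3 CPM after irradiation (SD, n = 3) and 0.517 ± 0.895 CPM in homeostasis, a choice made after the values were seen. The largest summed share in a well was 1.45% of its UMIs.

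The models went together within wells. Of 49 irradiated wells with Gm10800, 38 also held Gm10801 and 34 held Gm21738, and 29 wells held all 3. The 14 wells with most of these UMIs held neuronal transcripts. All 14 held Snap25 and Elavl4, a neuronal RNA-binding protein, 10 held Nos1 and 12 held the cholinergic genes Chat or Slc18a3. Some thus held both Nos1 and a cholinergic gene. None held the glial genes Sox10 or Gfap, the only glia markers counted in these wells. Their total UMIs (3977 to 12459, median 7366.5) stood beside a median of 6948 in the other irradiated wells, and their median mitochondrial share was 2.32% beside 1.90%. In the clustering described below 8 wells, all irradiated, formed a cluster whose 10 leading genes were gene models of this kind, and 7 of these wells were among the 14. Because those genes formed the cluster, its size is not compared. Averaged over the list, glia markers were found in 11.2% of its wells, beside 1.9% to 18.2% in the other clusters.

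**Figure D3:**
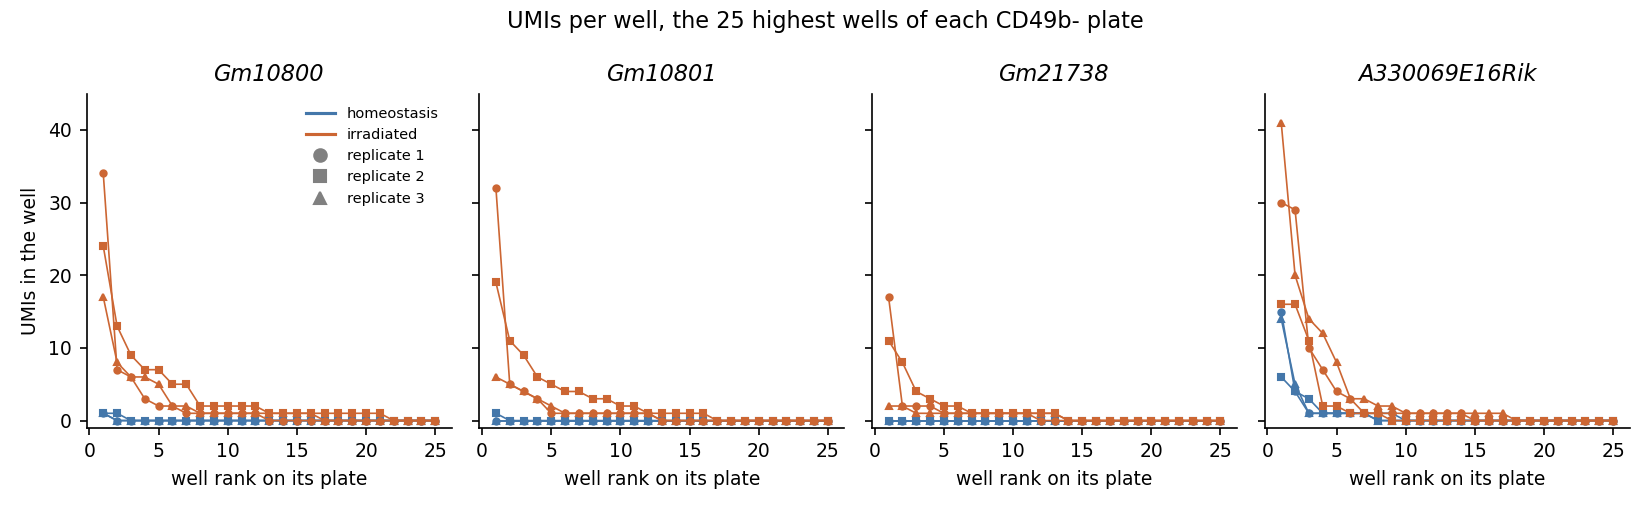
UMIs per well for the 25 highest wells of each CD49b- plate, by rank on the plate (linear axes). Irradiated plates reach 17 to 34 UMIs of Gm10800 in their highest well and to 2 UMIs or fewer from rank 8 on, while no homeostasis well exceeds 1; A330069E16Rik also has high homeostasis wells, up to 15 UMIs.

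A330069E16Rik (ENSMUSG00000097868, chromosome 2 from 91237146 to 91238352, plus strand) overlaps no other annotated gene. It stood at 45.6, 28.4 and 34.5 CPM in homeostasis and at 189, 72.7 and 176 CPM after irradiation, without overlap (log2 fold change 1.99, SE 0.34, edgeR adjusted p = 0.0123). The call was lost when 1 plate was left out in 4 of 6 cases and with the label set as a term (adjusted p 0.105 to 0.354 in those fits), although the log2 fold change stayed between 1.78 and 2.33 with any plate left out. With the label set as a term, only replicate 1 compares the treatments within a set. The gene was found in 7.69% to 9.68% of wells in homeostasis, against 14 of 92, 8 of 89 and 17 of 85 wells on irradiated replicates 1 to 3 (mean 14.7% ± 5.52, SD), so the shares of wells overlapped while the levels did not. Wells with 5 or more of its UMIs numbered 4 in homeostasis and 12 after irradiation. Without the highest well of each plate it stood at 16.25 ± 2.44 CPM and 88.1 ± 36.3 CPM (SD, n = 3). Of the 14 wells rich in repeat-like models 3 held it.

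The next genes by p, whose plates did not overlap but which missed the threshold, include a receptor, a surface glycoprotein and an enzyme. Plates of 6.45% of all tested genes did not overlap with the irradiated side higher, and of 6.34% with it lower, so a lack of overlap alone is common. Avpr1a encodes the vasopressin receptor V1a. It stood at 80.7, 50.2 and 38.8 CPM in homeostasis and at 12.4, 11.6 and 14.0 CPM after irradiation. Irradiated plates were alike and homeostasis plates more spread, all of them higher, with a log2 fold change of −2.12 (SE 0.44, edgeR adjusted p = 0.167). UMIs were found in 29.0%, 24.4% and 17.6% of homeostasis wells and in 5.43%, 8.99% and 10.6% of irradiated wells. In the clustering described below, at resolution 1.5, Avpr1a was among the leading genes of a cluster of 39 wells. Homeostasis replicates 1 to 3 gave it 11, 10 and 15 wells and irradiated replicates 1 to 3 gave it 1, 0 and 2. Whether fewer such cells or less Avpr1a per cell lay behind its level was not tested. Fitted on the 6 CD49b- plates alone, Avpr1a, Cd24a and the gastrin-releasing peptide gene Grp also passed the threshold.

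Cd24a encodes a small glycoprotein of the cell surface found on immature and regenerating neurons among other cells. It stood at 130, 127 and 203 CPM in homeostasis and at 265, 337 and 398 CPM after irradiation. Every irradiated plate lay above every homeostasis plate (log2 fold change 1.12, SE 0.32, edgeR adjusted p = 0.817). Unlike the genes past the threshold it was spread over many wells. With wells thinned to 2000 UMIs, 15.4%, 15.6% and 22.0% of homeostasis wells and 30.8%, 39.8% and 41.2% of irradiated wells held it. Its highest well gave at most 13.2% of a plate's UMIs.

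Of the other 10 nearest genes, 5 stood higher and 5 lower after irradiation, with adjusted p from 0.170 to 0.951. Gamt, which makes creatine, averaged 37.3 ± 3.81 CPM in homeostasis and 9.49 ± 5.76 CPM after irradiation. Nr4a1, an activity-induced nuclear receptor, averaged 77.7 ± 19.0 and 29.5 ± 2.87 CPM, and Myc, a growth-related transcription factor, 63.8 ± 26.3 and 22.8 ± 1.76 CPM. Serpina3n, a secreted protease inhibitor known from injured tissue, averaged 10.6 ± 3.27 and 31.2 ± 7.14 CPM. Nek1, a kinase of the cilium and the DNA damage response, averaged 24.7 ± 9.27 and 60.4 ± 19.35 CPM. The rest were Igsf3 and Gm7713, lower, and Hist1h2bc, Gm12155 and 4930528J11Rik, higher.

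The genes by which a radiation response is usually followed showed no member past the threshold. Over all tested genes 4329 had positive and 4186 negative values. Of 27 p53 targets 11 were tested, with a median log2 fold change of −0.08. At an unadjusted p under 0.05, 1 was higher and 1 lower (2.01% and 2.13% of all genes). Cdkn1a, which encodes the p21 arrest protein and is switched on by p53, stood at 31.6, 10.0 and 8.63 CPM in homeostasis and at 41.45, 46.5 and 37.4 CPM after irradiation. The plates did not overlap, with a log2 fold change of 1.35 (SE 0.50, edgeR adjusted p = 1). Plk2, a kinase induced by p53, was the lower member at −0.66. The target Mdm2, which ends the p53 response, had a log2 fold change of 0.23 (SE 0.48) and Bax, a promoter of cell death, 0.05 (SE 0.25). Among 9 tested DNA repair genes 8 had positive values, and Atm, the kinase that signals double-strand breaks, averaged 24.7 ± 9.64 and 47.5 ± 4.46 CPM (unadjusted p = 0.0335, edgeR adjusted p = 1). Of 7 tested cell death genes none reached an unadjusted p of 0.05.

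No interferon-stimulated or antigen presentation gene passed the threshold, and most had positive values. Of 22 tested interferon response genes 17 had positive and 4 negative values, and the median log2 fold change was 0.59 beside 0.01 over all genes. At an unadjusted p under 0.05, 5 were higher and 0 lower (2.01% and 2.13% of all genes). The 5 were Bst2, Ifit1, Ifit3, Irf9 and Rtp4, all of them at low levels. Irf9, a subunit of the interferon-activated transcription factor, stood at 17.5, 30.1 and 14.4 CPM in homeostasis and at 31.1, 62.5 and 46.8 CPM after irradiation. The list's median was 0.21 with the label set as a term, where only replicate 1 compares the treatments within a set. Of 17 antigen presentation genes 12 were positive, 3 were higher and 0 lower, and the median was 0.41. B2m, which encodes the β2-microglobulin that pairs with MHC class I heavy chains, stood at 265, 256 and 384 CPM in homeostasis and at 472.5, 529 and 462 CPM after irradiation. The plates did not overlap (log2 fold change 0.69, SE 0.23, edgeR adjusted p = 1). The class I heavy chain gene H2-D1, which shares 26.9% of its 31-base words with other genes, averaged 246 ± 53.7 and 354 ± 28.3 CPM.

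Immediate early genes, the transcription factors and signalling genes that neurons induce within minutes of activity and that tissue dissociation also induces, had mostly negative values over whole plates. Of 22 tested, 16 had negative values, and the median log2 fold change was −0.42. At an unadjusted p under 0.05, 6 were lower and 0 higher (2.13% and 2.01% of all genes). The lower ones were Nr4a1, Myc, Klf4, Arc, Klf6 and Egr1. Arc, a synaptic protein gene, stood at 84.2, 105 and 116.5 CPM in homeostasis and at 70.5, 55.25 and 40.5 CPM after irradiation (log2 fold change −0.90, SE 0.30, edgeR adjusted p = 1). The most abundant members did not share this: Fos had a log2 fold change of 0.05 (SE 0.24) and Dusp1 of 0.03 (SE 0.26).

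No metabolic gene passed the threshold. Of all genes tested 2.13% were lower at an unadjusted p under 0.05. Cholesterol biosynthesis had 21 tested members, 16 of them negative and 3 lower at an unadjusted p under 0.05 (Fdps, Dhcr7 and Hmgcs1), with a median of −0.27 that ran from −0.33 to −0.08 with a plate left out. Fdps, which makes farnesyl diphosphate, averaged 269 ± 54.2 CPM in homeostasis and 164 ± 23.4 CPM after irradiation. Glycolysis had 14 of 18 members negative, 1 lower (Pfkl) and a median of −0.25, or −0.12 with the label set as a term. Of 22 nuclear genes of oxidative phosphorylation and 28 ribosomal protein genes none reached an unadjusted p of 0.05, with medians of 0.07 for each. The mitochondrial ribosomal RNA mt-Rnr1 was the only mitochondrially encoded transcript of 10 to do so (0.49, SE 0.22, edgeR adjusted p = 1), beside the mitochondrial shares of wells given above.

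**Figure D4:**
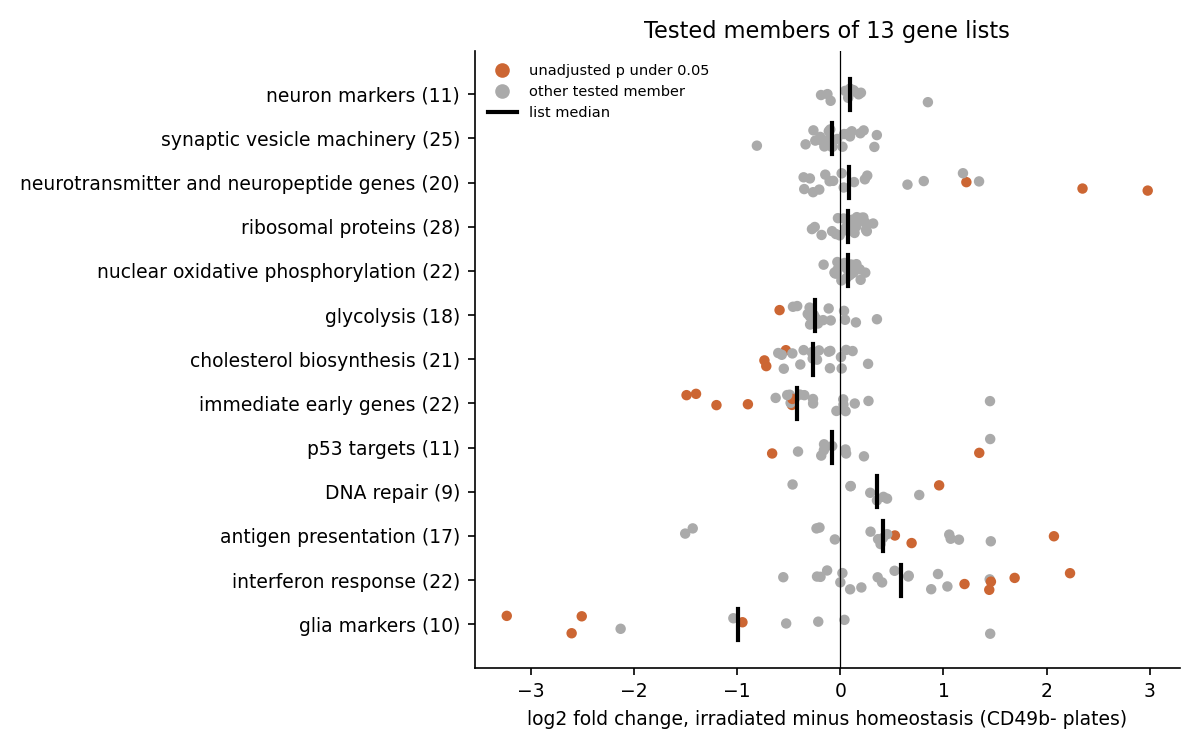
Log2 fold change (irradiated minus homeostasis, CD49b- plates) of each tested member of 13 gene lists, with the number tested in brackets, the list median as a black bar and members at an unadjusted p under 0.05 coloured. Interferon response (median 0.59) and immediate early genes (median −0.42) lie to either side of 0, and neuron markers (median 0.09) on it; none of the points shown passed the adjusted threshold.

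No gene of neuronal identity or function passed the threshold. None of 11 tested neuron markers and none of 25 genes of the synaptic vesicle machinery reached an unadjusted p of 0.05, with medians of 0.09 and −0.08. Among 20 neurotransmitter and neuropeptide genes 3 were higher and 0 lower at that p (2.01% and 2.13% of all genes). Grp, the gastrin-releasing peptide, stood at 40.3, 15.1 and 7.19 CPM in homeostasis and at 110, 108 and 95.1 CPM after irradiation, without overlap (log2 fold change 2.35, SE 1.01, edgeR adjusted p = 1). Fitted on the 6 CD49b- plates alone it had 2.365 (SE 0.37, edgeR adjusted p = 0.0249). Penk, the enkephalin precursor, stood at 191, 301 and 627 CPM and at 361, 1086 and 1168 CPM, with overlap. Sst, somatostatin, reached 1146 CPM on irradiated replicate 2 and 14.0 to 114 CPM on the other irradiated plates. There, 1 well held 716 of the plate's 788 Sst UMIs and 48 of 89 wells held at least 1. Whether Sst transcripts of that well reached the other wells was not tested, and the shares of wells with a UMI given here may hold such a background.

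Markers of other cells differed as follows. The 10 glia markers summed to 277 to 605 CPM in homeostasis and to 210 to 239 CPM after irradiation, with none at 0. Of them 8 had negative values, and the median was −0.99. At an unadjusted p under 0.05, 4 were lower (2.13% of all genes), among them Apoe and Ednrb. Apoe reached 203 CPM on homeostasis replicate 3 and at most 29.0 CPM on every other plate. With any 1 plate left out the glia marker median ran from −1.42 to −0.15. Wells with 2 or more markers of one non-neuronal list numbered 34, 38 and 54 on the homeostasis plates, above the 25, 32 and 20 on the irradiated plates. With those wells left out the test called 4 genes higher, the same 4, and 2 lower, Ctcfl and Vcam1, and the glia marker median was 0.00. The glia list was among those that picked these wells, so this median cannot test whether glia RNA differed. Fibroblast markers reached 396 CPM on homeostasis replicate 3 and 288 CPM on irradiated replicate 3 and were at most 20.3 CPM elsewhere. Smooth muscle markers reached 183 CPM on irradiated replicate 1 and at most 18.3 CPM elsewhere. Macrophage markers overlapped (18.3 to 42.9 against 26.95 to 44.2 CPM) with C1qa and C1qb at 0. In sums over wells, fewer cells with a transcript and less of it per cell cannot be told apart.

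The retained CD49b- wells were clustered so that the treatments could be compared within kinds of neuron. Of 9 clusters, clusters 0 and 2 (118 and 80 wells) were nitrergic-like by the markers Nos1, Vip, Npy, Gal, Cartpt, Ass1 and Etv1. Clusters 3 and 4 (79 and 73 wells) were excitatory-like by Chat, Tac1, Penk, Slc18a3, Calb2, Gda and Ndufa4l2. The other 5, among them cluster 1 (115 wells, led by Sst and Col6a1), stayed unnamed. Averaged over each list, excitatory markers were found in 60.7% of cluster 4 wells and nitrergic markers in 58.3%. Cluster 1 had 62.4% and 59.0%. A name also needed more of a cluster's 10 leading genes than any other list, which for cluster 4 was Calb2 alone. Nitrergic-like wells made up 29.0%, 50.0% and 33.0% of wells in homeostasis and 41.3%, 30.3% and 43.5% after irradiation (two-sided exact permutation p = 0.9). Excitatory-like wells made up 39.8%, 16.7% and 37.4%, and 32.6%, 25.8% and 17.6% (exact permutation p = 0.6). In a coarser clustering (resolution 0.5) they averaged 54.7% in homeostasis and 48.8% after irradiation. Within a treatment these shares differed between plates by more than the treatment means differed. The repeat-like models were found in irradiated wells of clusters 0 (12 of 73), 1 (13 of 54), 3 (7 of 39), 4 (5 of 29), 5 (3 of 13) and 6 (4 of 13), and in none of 29 irradiated wells of cluster 2 or of 8 of cluster 7.

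Sums over the nitrergic-like wells of each plate gave 1 gene past the threshold of 4570 tested (0.0219%), Arc, which was lower. It stood at 180, 166 and 193 CPM in homeostasis and at 57.2, 72.6 and 54.0 CPM after irradiation. The groups were far apart (log2 fold change −1.54, SE 0.25, edgeR adjusted p = 0.0495), but the call held in 2 of 6 fits with a plate left out, where the adjusted p ran from 0.0131 to 0.383. In the same wells Nr4a1 stood at 148, 172.5 and 151 CPM and at 67.65, 48.4 and 66.5 CPM (adjusted p = 0.1003). Of 19 tested immediate early genes 8 were lower and 1 (Fosb) higher at an unadjusted p under 0.05, beside 4.46% lower and 4.66% higher of all genes tested there. Clusters 0 and 2 entered this class in unlike parts: homeostasis wells numbered 45 and 51 in them, irradiated wells 73 and 29. Cluster 2 was itself led by Npy and by the immediate early genes Nr4a1, Ier2, Atf3 and Junb. Within cluster 0 alone 5 of 13 immediate early genes were higher and 1, Arc, lower at an unadjusted p under 0.05 (all genes 4.07% and 4.56%), with a median of 0.34 where the whole class had −0.42. Arc there had a log2 fold change of −0.9996 (SE 0.41, edgeR adjusted p = 0.5755).

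Of all 4570 genes tested in the nitrergic-like wells 2257 had negative values, and 4.46% were lower at an unadjusted p under 0.05. Glycolysis in these wells had 13 of 16 genes negative, 9 lower at that p and a median of −0.36. In cluster 0 alone it had 14 of 15 negative, 8 lower (4.56% of all genes there) and a median of −0.33. Eno1, an enolase, stood at 2039, 2153 and 2329 CPM in homeostasis and at 1540, 1583 and 1712 CPM after irradiation in nitrergic-like wells (log2 fold change −0.43, SE 0.13, edgeR adjusted p = 0.284). Its plates did not overlap, nor did those of Aldoa, an aldolase, at 5088, 4949 and 5071 CPM and at 3929, 3835 and 4068 CPM (−0.35, SE 0.12, adjusted p = 0.329). The 1 gene of the list higher at that p was Slc2a3, the neuronal glucose transporter. Cholesterol biosynthesis had 14 of 17 negative and 5 lower. Of the 7 nitrergic markers 4 had positive and 3 (Npy, Ass1 and Etv1) negative values in the nitrergic-like wells, with a median of 0.21. Cartpt and Gal, peptide genes of that list, had log2 fold changes of 1.315 (SE 0.26) and 1.04 (SE 0.21), with adjusted p of 0.1003 and 0.127. Both are among the markers that named the class. Cartpt was also a leading gene of cluster 0, which gave 45 homeostasis and 73 irradiated wells, and not of cluster 2, which gave 51 and 29. The part of this make-up in the 2 values was not tested. In excitatory-like wells Cartpt and Gal had 1.46 (SE 0.30) and 1.26 (SE 0.44), with adjusted p of 0.173 and 0.602. Gal stood there at 1641, 3020 and 2032 CPM in homeostasis and at 11670, 2272 and 1837 CPM after irradiation. Over whole plates Cartpt was found in 64 of 93, 70 of 78 and 87 of 91 homeostasis wells. After irradiation it was found in 92 of 92, 82 of 89 and 85 of 85. On irradiated CD49b+ replicates 1 to 3 these were 69 of 69, 9 of 84 and 1 of 60. Whether Cartpt transcripts spread between wells was not tested.

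The excitatory-like sums gave no gene past the threshold of 3442 tested with edgeR (0.0%), with 114 higher and 102 lower at an unadjusted p under 0.05 (3.31% and 2.96%). Cholesterol biosynthesis had all 11 of its tested genes negative, with 3 lower and a median of −0.49. Glycolysis had 13 of 15 negative, 3 lower and a median of −0.27. A330069E16Rik stood at 107, 0 and 0 CPM in homeostasis and at 398, 109 and 506 CPM after irradiation in these wells (adjusted p = 0.173).

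**Figure D5:**
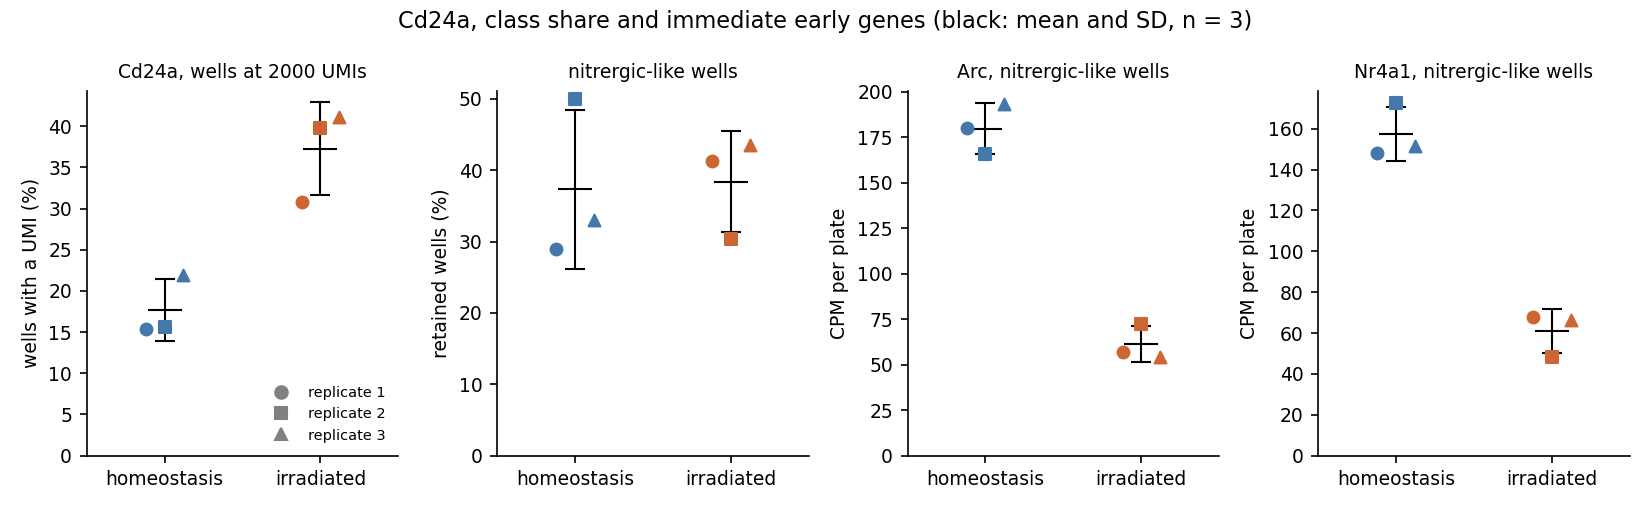
Left to right: percent of wells thinned to 2000 UMIs with a Cd24a UMI, percent of retained wells in nitrergic-like clusters, and CPM of Arc and Nr4a1 in sums over nitrergic-like wells, per CD49b- plate with mean and SD (axes from 0). Cd24a, Arc and Nr4a1 separate the treatments on all plates, while the nitrergic-like share (29.0% to 50.0% and 30.3% to 43.5%) overlaps.

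Single clusters could be fitted where at least 2 plates of each treatment had 10 or more wells. In cluster 0, with 3 plates a side, 1 gene of 3046 passed (0.0328%). This was Calb2, the calcium buffer calretinin, at 347, 216 and 402 CPM in homeostasis and at 99.5, 79.8 and 106 CPM after irradiation (log2 fold change −1.72, SE 0.30, edgeR adjusted p = 0.0481). It passed in 2 of 6 fits with a plate left out. Over whole plates Calb2 averaged 1504 ± 313 and 1094 ± 199 CPM, and the unnamed cluster 1 held it at 3557 CPM or more on each plate fitted, so the low level in cluster 0 stood beside rich wells on the same plates. In cluster 1 irradiated replicate 1 had too few wells, so its irradiated side was 1 label set. There 5 of 3521 genes passed (0.142%): Penk, Cd24a, Htr3a and the gene model Gm19244, higher, and mt-Co1, lower. Counted over all CD49b- plates, Penk had 26 UMIs in 20 of 61 homeostasis wells of this cluster. After irradiation it had 352 UMIs in 26 of 54 wells, so its UMIs rose far more than its share of wells. How evenly these UMIs were spread over the wells was not tested. With a plate left out Gm19244 was called in 5 of 5 fits, Penk in 4, mt-Co1 in 2, and Cd24a and Htr3a in 1 each. In cluster 3 the irradiated side was again replicates 2 and 3 alone, and 4 of 2943 passed (0.136%), A330069E16Rik, Gm19244, Gm13009 and the ribosomal RNA model Rn18s-rs5, all higher. Leaving out a plate left 1 plate on its side, so only log2 fold changes are given for those fits. They ran from 1.05 to 1.83 for Rn18s-rs5 and from 1.82 to 2.98 for Gm19244. For Gm13009 they ran from 2.01 to 3.85, and for A330069E16Rik from 3.61 to 8.12. Counted over all CD49b- plates, A330069E16Rik had 86 UMIs in 3 of 39 irradiated wells of cluster 3. In homeostasis it had 2 UMIs in 2 of 40 wells, so its level there rested on few wells. Over whole plates Gm19244 stood at 340 and 248 CPM on irradiated replicates 2 and 3. It stood at 39.4 CPM on irradiated replicate 1, below every homeostasis plate (43.5 to 84.8 CPM).

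Whether the response was particular to the CD49b- cells was tested as the difference between the gates' irradiation effects. On the CD49b+ plates 61 of 8555 genes passed (0.713%), 57 higher and 4 lower, none of them among the 4 genes above. The 3 repeat-like models gave 10 to 15 UMIs each there after irradiation, summed over the 3 plates, and 2 to 7 in homeostasis. The difference between the gates had an adjusted p of 0.107 for Gm10800, 0.614 for Gm10801, 0.533 for Gm21738 and 0.887 for A330069E16Rik, so a difference was not shown for any of them. With the mouse pool as a block, since both gates came from the same pools, these were 0.256, 0.777, 0.676 and 0.955. On simulated counts, gate differences of 4-fold were recovered in 45.5% of genes and of 2-fold in 0.5%.  The 1 gene whose effect differed (0.0117%) was Resp18, a protein gene of neuroendocrine secretory granules, whose log2 fold change was −0.07 (SE 0.54) in CD49b- cells. With the pool as a block no gene passed (542 at an unadjusted p under 0.05), and Resp18 had an edgeR adjusted p of 0.134. Neuron markers moved with it on the CD49b+ plates: the 11 tested had a median log2 fold change of 3.91 there, beside 0.09 over all genes, and Snap25 had 1, 2 and 2 UMIs in homeostasis and 30, 49 and 0 after irradiation. Their part in the difference between gates was not tested.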

How the data were processed

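UMI counts per gene and well of all 12 plates were deposited as 1 table; per the submitters' processing notes the authors used STAR 2.5.3a and featureCounts 1.5.3 with the builds GRCm38 and GRCh38, the role of the second not being stated. How reads were collapsed to molecules is not given in the sources used here. Wells with at least 1000 UMIs, 500 genes and under 20% mitochondrial UMIs were summed per plate. The sums of all 12 plates entered edgeR 4.0.16 (R 4.3.3; filterByExpr, TMM, 4 group means, quasi-likelihood test, Benjamini-Hochberg threshold 0.05), which was tested on simulated data. Each plate pooled 2 mice, so p-values measure the spread between pools. Plate medians and shares of wells were compared by two-sided exact permutation tests.

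Retained CD49b- wells were scaled to 10000 UMIs and clustered with scanpy 1.11.5 (Python 3.11.15; 2000 variable genes, 30 components, 15 neighbours, Leiden resolution 1.0, leidenalg 0.10.2). No doublet caller was run on these sorted single-cell wells; leaving out wells with 2 or more markers of another cell type was an alternative. Cluster sums needed 10 wells per plate, and class sums had no minimum. Shares of wells with a UMI were also computed after thinning to 2000 UMIs, leaving out shallower wells.

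Alternatives were DESeq2 1.42.0, other scalings, no gene filter, the 6 plates alone, label set or age as a term, other well filters, thinning to 1000 UMIs and leaving out each plate. Per the labels' mouse numbers each pool gave both gates, so the gate comparison was also fitted with the pool as a block; deviations from the group means correlated between the gates of a pool at −0.034 to 0.184. Class sums, removal of the highest well, cluster fits without each plate and the pool block were chosen after seeing the data. The genes named were those past the threshold, Dclk1 and Itga2, the 12 of smallest p with no overlap of plates and a mean of at least 20 CPM, the 3 most abundant tested members of each list with every member at an unadjusted p under 0.05, and up to 10 genes past the threshold per cluster, of which the text gives a part. Genes given for other reasons (Mdm2, Bax, Gm19244 over whole plates) were chosen after their values were seen. The members and lists were chosen with earlier results of these data known. Sequences are from the GENCODE vM21 transcripts of GRCm38.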

Additional observations from a re-analysis of the deposited data

Results flagged for a closer look

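The irradiation effect on Resp18, a gene of neuroendocrine secretory granules, differed between the gates by an interaction test. The log2 effect in CD49b- cells minus that in CD49b+ cells was −8.59 (SE 1.44, edgeR adjusted p = 0.0326). In CD49b- cells Resp18 stood at 3368, 3096 and 3387 CPM in homeostasis and at 3523, 2819 and 3052 CPM after irradiation. On the CD49b+ plates it had 0, 1 and 0 UMIs in homeostasis and 187, 262 and 0 UMIs after irradiation, so its CD49b+ effect came from 2 of 3 irradiated plates. On the same plates the neuronal gene Snap25 had 1, 2 and 2 UMIs in homeostasis and 30, 49 and 0 UMIs after irradiation, and the 11 tested neuron markers had a median log2 fold change of 3.91 in CD49b+ cells. The part of neuronal RNA on these plates was not tested. With the mouse pool as a block the difference was −8.06 (SE 1.52, edgeR adjusted p = 0.134). The call was lost when any 1 CD49b- plate was left out, with 0 genes called in each of the 6 fits.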

How the results depend on the processing

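Irradiated and homeostasis plates came from different mice, so that comparison has no pairing. The gates of a replicate share a mouse pool, and with this pool as a replicate block 0 genes differed between gates, where 1 did without it. Of the genes past the threshold, Gm10801 and Gm21738 were called in each alternative that tested them. Neither was tested with wells thinned to 1000 UMIs or in the class sums, so their calls at equal depth are unknown. Gm10800 missed the threshold once, with wells thinned to 1000 UMIs (log2 fold change 4.74, edgeR adjusted p = 0.115). A330069E16Rik missed it with the label set as a term (2.18, adjusted p = 0.354), in nitrergic-like wells (1.43, 0.387), in excitatory-like wells (2.88, 0.173) and without irradiated replicates 1 or 3 or homeostasis replicates 2 or 3 (1.78 to 1.97). The genes called higher numbered 30 with no gene filter, 0 with thinned wells, 0 in either class alone and 3 to 4 with a plate left out, where Sst was added without irradiated replicate 3. The genes called lower numbered 15 with no gene filter, 1 on the 6 plates alone (Avpr1a), 2 without wells holding markers of another cell type, 1 in nitrergic-like wells and 0 to 1 with a plate left out (Ptrf, without homeostasis replicate 1). The genes differing between gates numbered 23 with DESeq2, 67 with no gene filter, 4 with the label set and 5 with age as a term, 7 without wells holding markers of another cell type, and 0 to 0 with a plate left out. With a plate left out, calls ran from 0 to 22 in cluster 0, from 1 to 29 in cluster 1 and from 6 to 26 in cluster 3, and a lone plate on a side was assumed to vary like the others. The nitrergic-like share was 1.06 percentage points higher after irradiation, −0.07 at resolution 1.5 and −3.09 to 7.39 with a plate left out (−3.09, −1.13, −0.4 and −1.51 where it changed sign), so it has no stable direction. The cause of these changes was not tested, apart from the fewer wells or UMIs in the thinned and class sums.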
